A study of Homo sapiens with 6 samples.

Results

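The EGR, FOS and JUN families, transcription factor genes that cells switch on within minutes of a stimulus, were followed in Hep-G2, a human liver cancer cell line, after depletion of calmegin (CLGN), a chaperone of the endoplasmic reticulum. They were EGR1, EGR2 and EGR3, then FOS, FOSB, FOSL1 and FOSL2, and then JUN, JUNB and JUND, 10 genes of the 58735 in the table. All 10 were found by their symbols. The genes were chosen by family name with their differences between these libraries already known, so the values of that contrast are given as a description, with no p-value for any of them. The groups were sh-NC, Hep-G2 cells with a control short hairpin RNA, and sh-CLGN, Hep-G2 cells with a hairpin against CLGN, each with 3 libraries. Per the study's methods, both hairpins were carried by lentivirus and the cells were selected with puromycin, so these exposures were shared. The labels gave all 6 libraries the cell type hepatocytes and the batch 0DAY. Each group had 1 hairpin, so a difference between the hairpins or their cultures cannot be told apart from the loss of CLGN. No label said that replicates came from separate cultures, so adjusted p-values measure only the spread between these libraries, which may be technical.

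EGR proteins are zinc finger factors that bind GC-rich sites, and their own corepressors NAB1 and NAB2 hold them in check. FOS and JUN proteins pair through leucine zippers to form AP-1: JUN proteins can pair among themselves, while FOS proteins need a JUN partner. Growth factors, serum, stress and cell handling induce these genes through ERK, JNK and p38 kinases, which act on serum response factor (SRF) with its ELK partners at CArG boxes, and on CREB and ATF factors at cyclic AMP response elements (CRE). Their transcripts are short-lived, and in liver they are best known for the early wave that follows injury or partial hepatectomy.

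Promoter stretches are printed first because they can carry elements through which that induction runs. RefSeq windows on GRCh38.p14, from 250 bases before to 50 after a transcript start, matched 8 of the 10 genes and gave 10 windows. The searches, on both strands, were for the CArG box, the full CRE TGACGTCA, its core TGACG, which lies within the full CRE, the AP-1 site TGACTCA and the EGR site GCGNGGGCG. The stretches below run 5′ to 3′ and hold 150 bases each, and capitals mark a CArG box or a CRE core on either strand.
EGR1, chr5:138465329-138465478, plus strand: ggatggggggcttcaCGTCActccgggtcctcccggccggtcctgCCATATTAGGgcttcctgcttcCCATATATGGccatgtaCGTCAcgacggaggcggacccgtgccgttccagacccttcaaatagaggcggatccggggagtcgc
EGR2, chr10:62816367-62816516, minus strand: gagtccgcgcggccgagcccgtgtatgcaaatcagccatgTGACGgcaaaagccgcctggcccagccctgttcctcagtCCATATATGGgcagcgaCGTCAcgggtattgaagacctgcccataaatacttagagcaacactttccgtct
FOS, chr14:75278624-75278773, plus strand: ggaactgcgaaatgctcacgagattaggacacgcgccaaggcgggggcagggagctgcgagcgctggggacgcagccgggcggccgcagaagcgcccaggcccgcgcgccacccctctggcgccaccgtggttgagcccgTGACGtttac
FOSB, chr19:45467845-45467994, plus strand: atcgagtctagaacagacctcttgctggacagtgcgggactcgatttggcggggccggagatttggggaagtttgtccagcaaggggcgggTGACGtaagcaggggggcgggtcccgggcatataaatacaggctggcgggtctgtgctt
JUNB, chr19:12791336-12791485, plus strand: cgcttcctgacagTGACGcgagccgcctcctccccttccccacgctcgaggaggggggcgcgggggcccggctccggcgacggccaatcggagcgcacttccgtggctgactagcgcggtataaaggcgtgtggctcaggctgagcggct
JUND, chr19:18281623-18281772, minus strand: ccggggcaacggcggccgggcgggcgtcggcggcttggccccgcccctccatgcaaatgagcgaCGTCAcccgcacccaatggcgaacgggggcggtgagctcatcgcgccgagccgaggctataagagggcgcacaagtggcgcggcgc

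The EGR1 stretch held a pair of CArG boxes, starting 105 and 83 bases before the transcript start, between CRE cores at 135 and 66. The EGR2 stretch, from the most downstream of its 3 windows, held a CArG box at 71 between CRE cores at 110 and 54. A CArG box was found in no window of another member, and in 1.29% of all 35116 windows. The windows reach only 250 bases before the start, so a box further upstream, in FOS for example, would not be seen. A CRE core was found in 8 of 8 matched genes, against 28.4% of the 27305 genes with a window. The cores of FOS, FOSB, JUNB and JUN started 64, 60, 137 and 123 bases before the start, and those of FOSL2 at 201 and 66. The FOS stretch ends 54 bases before the RefSeq start and the FOSB stretch 1 base before it. JUND had a core at 86 and, upstream of the printed stretch, a full CRE at 200, a motif found in 1.85% of windows. The AP-1 site was found in FOSL2, 5 bases after the start, and in 4.95% of windows. The EGR site was found in EGR1 at 198 and in another EGR2 window, and in 9.43% of windows. These matches describe letters in a window and do not show binding.

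The targeted gene was read first. CLGN stood at 24.1, 21.0 and 26.1 FPKM (fragments per unit of gene length and of library size) in sh-NC and at 9.48, 8.88 and 8.60 FPKM in sh-CLGN. It fell by 1.31 on the log2 scale (adjusted p = 8.35e-06), to 37.8% of the control mean. The libraries held 14955816 to 16244639 reads recovered from the deposited values, and a single read per kb of gene corresponded to 0.0589 to 0.0717 FPKM. Log2 differences below are of log2(FPKM + 1), sh-CLGN minus sh-NC, a scale that understates the change of low genes. The divisor used for the FPKM was 0.933 to 0.953 of the recovered reads for sh-NC libraries but 1.07 to 1.08 for sh-CLGN libraries. Reads are therefore given beside FPKM for the 10 genes. Other genes, CLGN included, have FPKM alone, and scaling by read totals moved the median log2 difference of all genes by 0.16. A read was found on 23578 to 23793 genes in sh-NC, against 26814 to 27006 in sh-CLGN. The hepatocyte label held for all 10 of its markers, ALB, APOA1 and HNF4A among them, which were at 1 FPKM or more in every library. In bulk RNA, fewer cells expressing a gene and less RNA per cell cannot be told apart.

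EGR1, JUN, JUNB, JUND, FOS and FOSL1 were lower in all 3 sh-CLGN libraries than in any sh-NC library, FOSL2 was slightly higher, and EGR2, EGR3 and FOSB overlapped between groups. For comparison, all 3 sh-CLGN libraries lay below all 3 sh-NC libraries for 41.5% of the 13074 genes tested and above them for 28.7%. The median log2 difference was -0.70 over the 10 genes and -0.08 over the genes tested. The expression filter, at least 1 FPKM in at least 3 libraries, was passed by 6 of the 10 (EGR1, FOS, FOSL2, JUN, JUNB and JUND), and FOS passed it through the sh-NC libraries alone. Of these 6, EGR1 and JUNB were lower past both thresholds, an adjusted p of at most 0.05 and a log2 difference of at least 1 in size, and none was higher. With 0.1 added to FPKM in place of 1 there were 4, with FOS and JUN. With voom on the recovered reads FOS made 3, and without sh-NC 3, sh-CLGN 2 or sh-CLGN 3 JUN made 3. Of all genes tested, 3.19% were lower and 3.09% higher by that rule. By adjusted p alone 5 of the 6 were lower and 0 higher, against 39.0% lower and 26.7% higher of all genes, while 1, FOSL2, was higher with TPM, read totals, quantile scaling, GC correction or voom. These counts come from the contrast that chose the genes and are not read as a result about them.

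**Figure D1:**
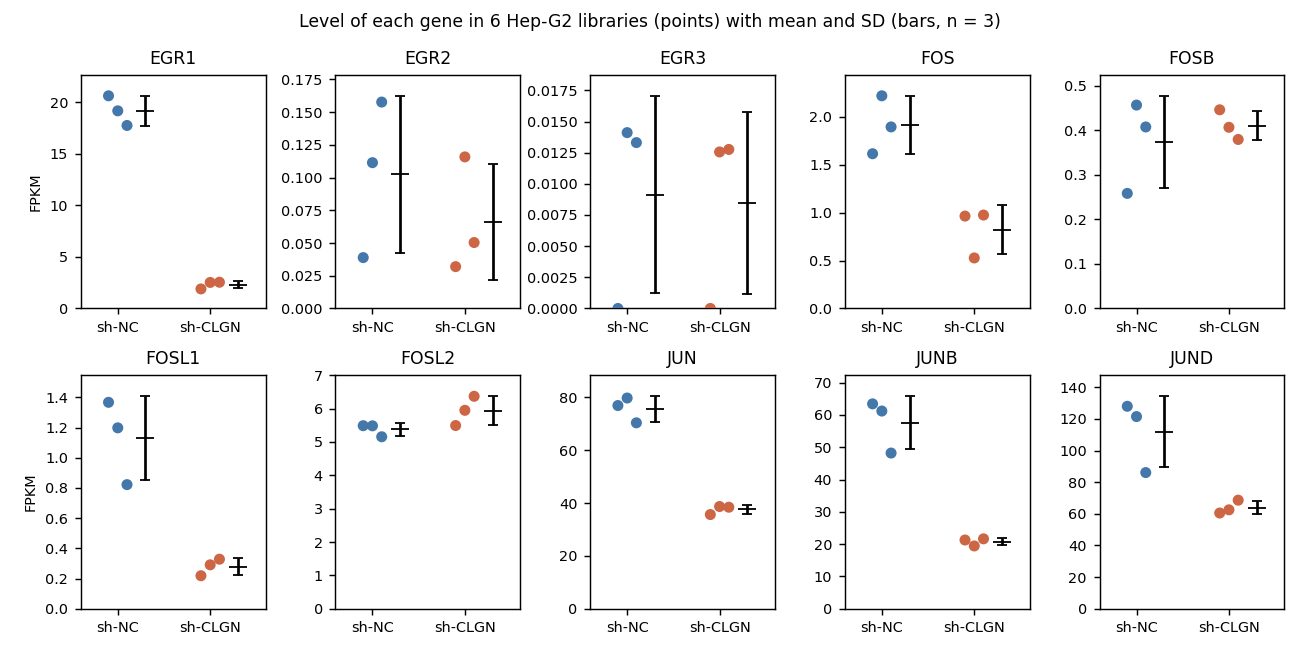
FPKM of each of the 10 genes (vertical axes, each from 0) in 3 sh-NC (blue) and 3 sh-CLGN (orange) libraries, with the group mean and SD as black bars. EGR1 stands at 17.8 to 20.6 FPKM in sh-NC, against 1.90 to 2.55 in sh-CLGN, while FOSB and EGR2 overlap.

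EGR1, the zinc finger factor that gives the family its name, differed the most of the 10. Its level was 20.6, 19.2 and 17.8 FPKM in sh-NC and 1.90, 2.53 and 2.55 FPKM in sh-CLGN, from 904, 879 and 863 reads and 101, 130 and 129 reads. The groups lay far apart, and each was tight. The mean was 19.2 ± 1.44 FPKM in sh-NC and 2.32 ± 0.369 FPKM in sh-CLGN (SD, n = 3), 8.27-fold lower, with a log2 difference of -2.61. Scaled by read totals, the mean was 7.22-fold lower. In all, 0.0230% of the genes tested had a lower log2 difference. EGR1 (ENSG00000120738) lies at chr5:138465490-138469315 on the plus strand of GRCh38, and its main transcript has 2 exons.

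EGR2, known for its part in myelination and in lymphocytes, was barely detected. It had 2, 6 and 9 reads in the control libraries and 2, 7 and 3 in the knockdown libraries, which gave 0.0389, 0.111 and 0.158 FPKM and 0.0320, 0.116 and 0.0504 FPKM. The groups overlapped, and a difference was not detectable at this depth. EGR2 (ENSG00000122877) lies at chr10:62811996-62919900 on the minus strand. EGR3 (ENSG00000179388), another member of the family, had 0, 1 and 1 reads in each group, under the floor of 3 reads, so no fold is given. EGR1 therefore made up 99.4% ± 0.385 of the summed FPKM of the family in sh-NC against 97.0% ± 1.66 in sh-CLGN (SD, n = 3). The sum was 20.7, 19.3 and 17.9 FPKM in sh-NC and 1.93, 2.66 and 2.61 FPKM in sh-CLGN.

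The JUN family was the most abundant of the families per gene length, and its 3 members, each a gene of 1 exon, were all lower in sh-CLGN. JUN, the founding AP-1 subunit and the substrate of JNK, was at 76.9, 79.7 and 70.4 FPKM in sh-NC and at 35.7, 38.7 and 38.4 FPKM in sh-CLGN. Its reads were 3798, 4121 and 3854 against 2141, 2245 and 2196. The groups did not approach each other, at 75.7 ± 4.81 and 37.6 ± 1.68 FPKM (SD, n = 3), 2.01-fold lower with a log2 difference of -0.99. JUN (ENSG00000177606) lies at chr1:58780788-58784327 on the minus strand.

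JUNB, an AP-1 subunit that often opposes JUN on shared sites, showed the largest log2 difference of the family. Its level was 63.4, 61.2 and 48.2 FPKM in sh-NC and 21.3, 19.4 and 21.6 FPKM in sh-CLGN, from 1610, 1626 and 1357 reads and 657, 580 and 636 reads. Library sh-NC 3 was the lowest control, yet it stayed well above every sh-CLGN library. The means were 57.6 ± 8.22 and 20.8 ± 1.18 FPKM (SD, n = 3), 2.77-fold lower with a log2 difference of -1.42. JUNB (ENSG00000171223, chr19:12791496-12793315, plus strand) shares 259 exonic bases, 14.2% of its own, with HOOK2 on the other strand. HOOK2 was at 2.40 to 2.99 FPKM in sh-NC and 2.96 to 3.21 FPKM in sh-CLGN. How strand was counted is not given in the sources used here, and reads of that stretch cannot be told apart.

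JUND, the member usually present without a stimulus, was the most abundant of the 10 genes in both groups. It stood at 128, 121 and 86.1 FPKM in sh-NC and at 60.5, 62.5 and 68.7 FPKM in sh-CLGN, from 3327, 3304 and 2482 reads and 1913, 1910 and 2065 reads. The gap between sh-NC 3 and the highest sh-CLGN library was narrower than the spread within sh-NC. The means were 112 ± 22.5 and 63.9 ± 4.23 FPKM (SD, n = 3), 1.75-fold lower with a log2 difference of -0.78. JUND (ENSG00000130522) lies at chr19:18279760-18281622 on the minus strand.

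The family as a whole summed to 268, 262 and 205 FPKM in sh-NC and to 118, 121 and 129 FPKM in sh-CLGN, 2.01-fold lower. Scaled by read totals, the sum was 1.75-fold lower, JUN 1.76-fold, JUNB 2.42-fold and JUND 1.53-fold. Within the sum the members shifted unevenly. JUND took 45.4% ± 2.93 of the sum in sh-NC against 52.2% ± 0.967 in sh-CLGN, and JUNB 23.5% ± 0.161 and 17.0% ± 1.02. The share of JUN overlapped, at 31.1% ± 2.93 and 30.8% ± 1.16 (SD, n = 3).

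The FOS family was far lower in level, and its members differed in direction. FOS, the classic serum-induced gene, was at 1.62, 2.22 and 1.90 FPKM in sh-NC and at 0.965, 0.528 and 0.976 FPKM in sh-CLGN, from 73, 105 and 95 reads and 53, 28 and 51 reads. The groups were separate but their counts were small. The means were 1.91 ± 0.303 and 0.823 ± 0.256 FPKM (SD, n = 3), 2.32-fold lower, or 2.03-fold when scaled by read totals, and the log2 difference was -0.68. FOS (ENSG00000170345) lies at chr14:75278774-75282230 on the plus strand.

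FOSL1, which encodes FRA1, a subunit tied to ERK activity and invasive growth, was at 1.37, 1.20 and 0.822 FPKM in sh-NC and at 0.219, 0.291 and 0.328 FPKM in sh-CLGN. These values rested on 36, 33 and 24 reads and on 7, 9 and 10 reads. The groups did not overlap, at 1.13 ± 0.279 and 0.279 ± 0.0557 FPKM (SD, n = 3), 4.04-fold lower, while the log2 difference, held down by the added 1, was -0.73. With 0.1 added in place of 1, it was -1.68. Scaled by read totals, the mean level was 3.53-fold lower. FOSL1 (ENSG00000175592, chr11:65892049-65900573, minus strand) stayed under the expression filter and was not tested.

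FOSB, known for its stable splice form in neurons, had 20, 37 and 35 reads in the control libraries and 42, 37 and 34 in the knockdown libraries. Its level was 0.374 ± 0.103 and 0.411 ± 0.0335 FPKM (SD, n = 3), the groups overlapped, and the log2 difference was 0.04. FOSB (ENSG00000125740) lies at chr19:45467995-45475179 on the plus strand. FOSL2, which encodes FRA2, went the other way from FOS and FOSL1. It was at 5.49, 5.48 and 5.16 FPKM in sh-NC and at 5.49, 5.95 and 6.37 FPKM in sh-CLGN, from 548, 573 and 571 reads and 667, 698 and 736 reads. The lowest sh-CLGN library lay only just above the highest sh-NC library. The means were 5.38 ± 0.191 and 5.94 ± 0.438 FPKM (SD, n = 3), with a log2 difference of 0.12. FOSL2 (ENSG00000075426) lies at chr2:28392448-28417312 on the plus strand.

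FOSL2 held the largest share of the family in every library. Its share was 61.2% ± 2.31 in sh-NC against 79.7% ± 2.95 in sh-CLGN, while that of FOS was 21.7% ± 2.80 and 11.0% ± 3.24, and that of FOSL1 12.8% ± 2.87 and 3.73% ± 0.575 (SD, n = 3). The summed level was 8.73, 9.36 and 8.28 FPKM in sh-NC and 7.12, 7.17 and 8.05 FPKM in sh-CLGN, 1.18-fold lower. That gap was lost when levels were scaled by read totals: the sums were then 8.14, 8.79 and 7.89 for sh-NC and 7.71, 7.76 and 8.62 for sh-CLGN, and the groups overlapped. The JUN sum was 27.8 ± 3.02 times the FOS sum in sh-NC against 16.4 ± 0.420 times in sh-CLGN. These are RNA levels, and no protein was measured here.

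**Figure D2:**
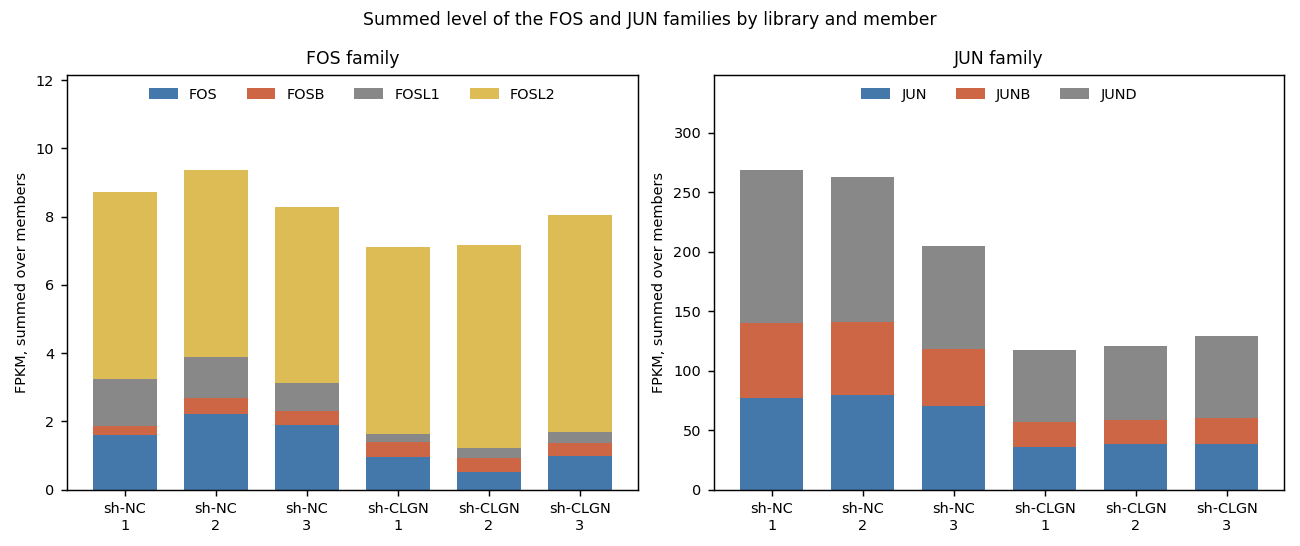
Summed FPKM of the FOS family (left) and the JUN family (right) in each of the 6 libraries, stacked by member, on separate scales that start at 0. The FOS sums lie at 8.28 to 9.36 in sh-NC, against 7.12 to 8.05 in sh-CLGN, with FOSL2 as the largest segment, and the JUN sums at 205 to 268 and 118 to 129.

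Ordered by mean level, the genes ran in sh-NC from JUND through JUN, JUNB, EGR1, FOSL2, FOS, FOSL1, FOSB and EGR2 to EGR3. In sh-CLGN, EGR1 stood below FOSL2 and FOSL1 below FOSB, and the rest of the order was kept. No neighbours in either order overlapped across the 3 libraries of a group. At the low end EGR2 had as few as 2 reads in a library and EGR3 0 or 1, under the floor of 3 reads, so their order is uncertain. JUN was 3.95 ± 0.216 times EGR1 in sh-NC against 16.4 ± 2.08 times in sh-CLGN (SD, n = 3).

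The genes share features that had no part in their choice. All 10 have 4 or fewer exons, as do 19.6% of the genes tested, and JUN, JUNB and JUND have 1 exon, as do 2.09%. The 3′ UTR of each of the 10 holds the AU-rich pentamer ATTTA, which many short-lived transcripts carry, from 1 copy in EGR1, FOSL1 and JUND to 5 in FOS and 9 in FOSL2. The pentamer was found in 67.7% of 10948 tested genes with an annotated 3′ UTR. The longer form TTATTTA was found in EGR2, FOS and FOSL2, and in 28.6% of those genes. None of the 10 held a heptamer complementary to positions 2 to 8 or 3 to 9 of the CLGN hairpin's guide strand, against 11.2% of those genes.

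Transcript GC content was above that of the median tested gene, 49.5%, by a clear margin in all of the genes but EGR2, which stood at 49.6%. Among the others under the filter it was 62.3% for EGR3, 60.5% for FOSL1 and 59.1% for FOSB. In the 6 tested genes it was 69.7% for JUND, higher than in 99.5% of the genes tested, 64.9% for JUNB, 59.9% for FOS, 56.7% for JUN, 56.5% for FOSL2 and 55.4% for EGR1. Over all genes, the difference between groups moved with GC content, from a median log2 difference of 0.25 in the lowest 10% of genes by GC to -0.28 in the highest 10%. Library sh-NC 3 stood apart on the same axis. Its level was 0.830 of the mean of the other sh-NC libraries in the median gene of that highest 10% and 0.995 in the median gene overall. For JUND that ratio was 0.690, for JUNB 0.774, for EGR1 0.892 and for FOS 0.988. With the GC trend removed in each library, the log2 difference was -2.40 for EGR1, -1.11 for JUNB, -0.77 for JUN, -0.43 for JUND, -0.43 for FOS and 0.34 for FOSL2. JUND and FOS lay nearest to 0 of the 5 lower genes both before and after that step, and FOSL2 lay further above 0 than before.

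**Figure D3:**
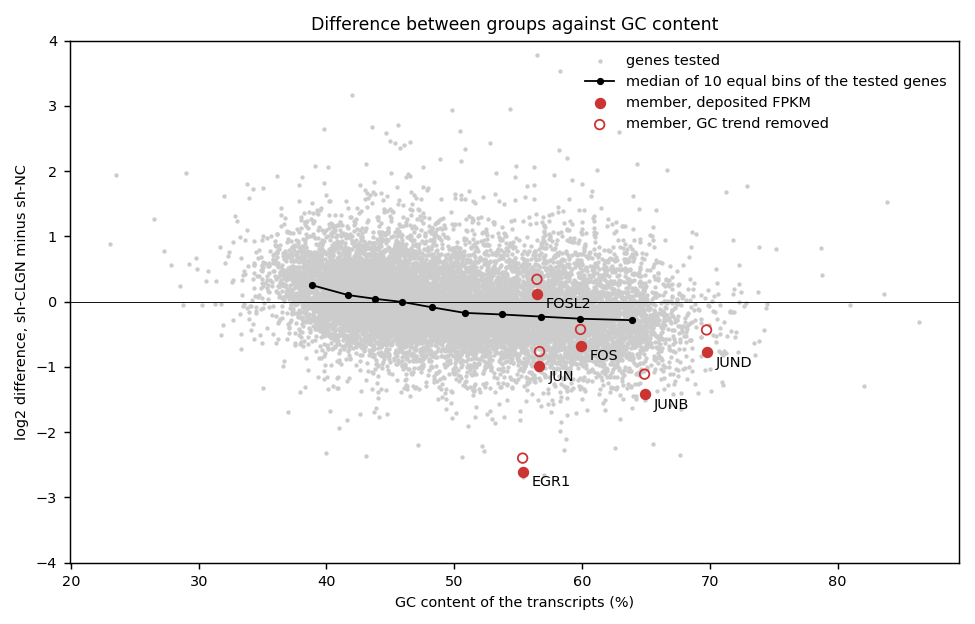
Log2 difference, sh-CLGN minus sh-NC (vertical axis), against transcript GC content in percent (horizontal axis) for the genes tested (grey), the medians of 10 equal bins of them by GC (black line), and the 6 tested members with deposited FPKM (filled) and with the GC trend removed (open). The line runs from 0.25 to -0.28, and EGR1 lies at -2.61, or at -2.40 with the trend removed.

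Other genes of the same early response were mostly lower. This list and those below were drawn up with earlier results of these data known, so their counts are a description. Of all genes tested, 3.19% were lower and 3.09% higher past both thresholds, and 39.0% lower and 26.7% higher by adjusted p alone. Of 31 listed immediate early genes, 28 were tested: 8 fell past both thresholds and none rose, and by adjusted p alone 23 were lower and 2 higher. Their median log2 difference was -0.70. ATF3, a stress-induced partner of JUN, was at 25.3, 24.2 and 24.4 FPKM in sh-NC and at 5.95, 5.93 and 5.55 FPKM in sh-CLGN, and fell by 1.91 on the log2 scale (adjusted p = 4.15e-07). RHOB, a short-lived GTPase, fell by 1.57, DUSP1, the phosphatase that shuts off p38 and JNK, by 1.81, PPP1R15A, which restores translation after stress, by 1.57, and MAFF, a small bZIP factor, by 1.51. The 2 that were higher, named here after their values were seen, were CYR61 at 0.50 and SGK1 at 0.21. In all, 10 genes stand in more than 1 of the lists used here.

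Genes upstream of the families moved in both directions. Of 33 kinases, adaptors and promoter factors, 1 fell past both thresholds, the p38 kinase MAPK14 with a log2 difference of -1.03, and by adjusted p alone 18 were lower and 6 higher (median -0.19). SRF, the factor that binds the CArG box and is itself an early gene, was at 12.5, 12.7 and 10.4 FPKM in sh-NC and at 6.41, 6.20 and 6.53 FPKM in sh-CLGN, a log2 difference of -0.80 (adjusted p = 7.23e-05). Its ELK partners did not share that direction. The log2 differences of ELK4 and ELK3 were 0.46 (adjusted p = 0.000651) and 0.34 (adjusted p = 0.00408), and that of ELK1 was 0.13 (adjusted p = 0.197). CREB1, a CRE-binding factor, was at 3.72 ± 0.512 and 3.66 ± 0.262 FPKM (SD, n = 3), and its log2 difference was -0.01 with an SE of 0.09 (adjusted p = 0.903 in limma).

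ERK feedback genes, a list tied to ERK signalling that holds inhibitors but also ETS factors such as ETV4, were mostly lower as well. Of 14 tested, 5 fell past both thresholds and 13 were lower by adjusted p alone (median -0.78). ERRFI1, an inhibitor of the EGF receptor, had the largest difference at -1.78, from 166 to 172 FPKM in sh-NC to 47.9 to 49.1 FPKM in sh-CLGN. SPRY4 was at -1.40, DUSP6, the ERK phosphatase, at -1.16, ETV4, an ETS factor, at -1.08 and IER3 at -1.47. SPRED1, named after its values were seen, was the 1 that was higher, at 0.26.

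Among dimer partners and corepressors, 14 tested genes divided. By adjusted p alone 8 were lower and 5 higher (median -0.36, and -0.25 over all 16 listed). ATF3 and MAFF fell past both thresholds and BATF, a partner of JUN best known in lymphocytes, rose, from 0.210 to 0.330 FPKM in sh-NC to 3.05 to 4.03 FPKM in sh-CLGN, a log2 difference of 1.86 (adjusted p = 5.79e-06). BATF and BATF3, both among the 5 higher, passed the expression filter through the sh-CLGN libraries alone. JDP2, which represses AP-1 sites, was lower by a log2 difference of -0.67 and ATF2, which pairs with JUN at CRE-like sites, higher by 0.52. The EGR corepressors parted: NAB2, itself induced by EGR1, was at -0.57 (adjusted p = 0.000546) and NAB1 at 0.20 (adjusted p = 0.0212). The wider bZIP family, a group taken from the table's own column after values were seen, gave 36 other tested genes, of which 15 were lower and 14 higher by adjusted p alone (median -0.04). In that group ATF3, ATF6B, MAFF and NFIL3 fell past both thresholds and BATF rose. On their sh-NC libraries alone, the higher genes BATF, BATF3, CREB3L1 and BACH2 would not have passed the expression filter.

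Genes reported elsewhere as AP-1 or EGR1 targets did not move as one. Of 22 tested, 6 fell and 3 rose past both thresholds, and 15 were lower and 6 higher by adjusted p alone (median -0.47, and -0.34 over all 25 listed). ICAM1, an adhesion molecule, fell by 1.38 and NQO1, a quinone reductase, by 1.19 on the log2 scale. CD44, the hyaluronan receptor, rose by 2.07, from 0.808 to 1.00 FPKM to 6.84 to 6.98 FPKM. On its sh-NC libraries alone, CD44 would not have passed the expression filter. The other rises, named after their values were seen, were F3 at 1.23 and TIMP1 at 1.46.

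Genes that SRF drives with its MRTF partners, for the most part contractile, were more often higher than lower. The list also holds CYR61, higher at 0.50, and CTGF, lower at -0.64, which stand among the immediate early genes too. Of 14 tested, 4 rose past both thresholds and none fell, and by adjusted p alone 8 were higher, 2 lower, and 4 did not pass (median 0.35, and 0.27 over all 16 listed). TAGLN rose by 3.54 on the log2 scale, from 0.396 to 0.595 FPKM to 15.8 to 16.9 FPKM, and CNN1 by 2.20, TPM2 by 1.38 and MYL9 by 1.29. All are actin-binding or myosin proteins, and TAGLN and CNN1 passed the expression filter through the sh-CLGN libraries alone.

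Heat shock and dissociation genes, read because cell handling is known to induce the FOS and JUN families, had a median log2 difference of 0.29. Of 15 tested, 1 rose past both thresholds, the chaperone HSPH1 at 1.00, and by adjusted p alone 7 were higher and 2 lower. The summed level of the list was 1680 to 1728 FPKM in sh-NC and 1956 to 1977 FPKM in sh-CLGN. Hepatocyte genes summed to 4838 to 4874 FPKM and 3982 to 4176 FPKM, with 6 of 10 lower and 3 higher by adjusted p alone. TF, transferrin, was the 1 that passed both thresholds, at -1.62, and the list's median was -0.31. Of 14 genes of other cell types, 9 were under 1 FPKM in every library, the blood cell genes PTPRC, CD68 and CD3E and the endothelial gene VWF among them, and 5 were tested. But 3 were at 1 FPKM or more in every library: KRT19, PDGFRB and another endothelial gene, PECAM1, at 2.27 to 3.31 FPKM. The median log2 difference of all 14 was 0.02. Of those, COL3A1 and LUM, a collagen and a matrix proteoglycan, rose by 1.08 each, but both passed the expression filter through the sh-CLGN libraries alone. That list summed to 40.4 to 45.4 FPKM in sh-NC and 63.0 to 67.7 FPKM in sh-CLGN. KRT19 made up most of both sums, at 34.47 to 38.85 FPKM in sh-NC and 53.85 to 58.7 FPKM in sh-CLGN. The part of these lists in the differences of the EGR, FOS and JUN genes was not tested.

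**Figure D4:**
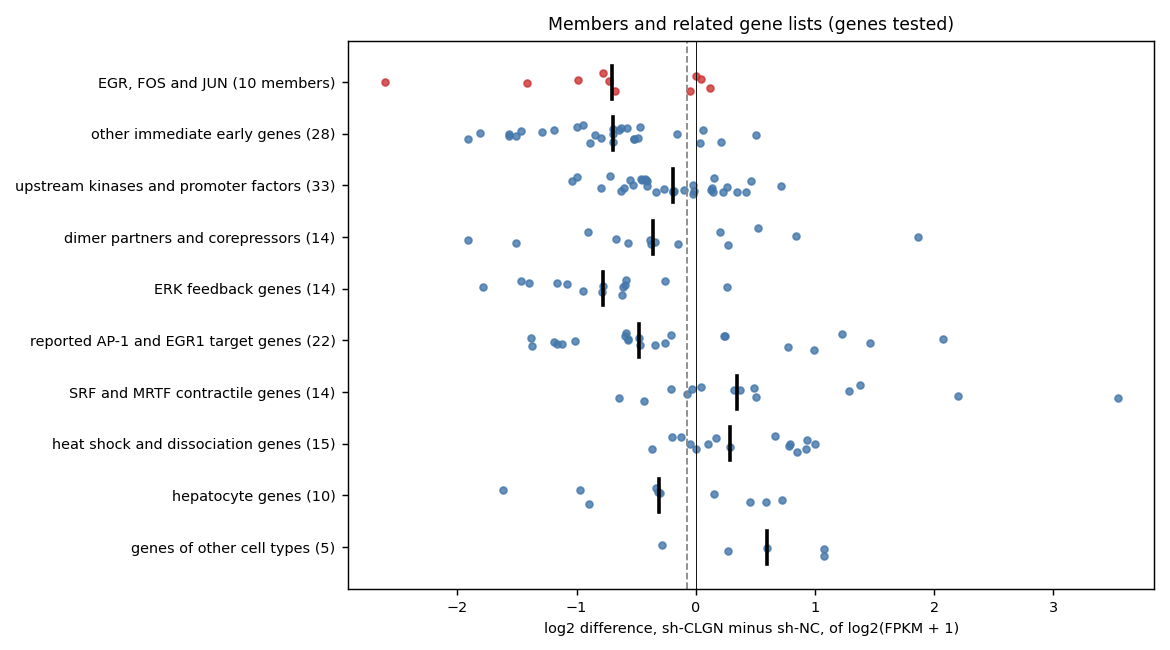
Log2 difference, sh-CLGN minus sh-NC, of log2(FPKM + 1) (horizontal axis) for the 10 members (red) and for the tested genes of 9 related lists (blue, number in brackets), with each list's median as a black bar and the median of all genes tested, -0.08, as a dashed line. The lowest list median is -0.78, of the ERK feedback genes, and of the genes of other cell types 5 of 14 are shown, COL3A1 and LUM having passed the filter through sh-CLGN alone.

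The 5 genes whose profile over the 6 libraries lay nearest to that of EGR1, by Euclidean distance of centred log2(FPKM + 1), were SLC7A1, SLC51B, SLC2A4RG, LCT and CHAC1. Their distances were 0.24, 0.39, 0.44, 0.47 and 0.51, against a median of 3.13 over the genes tested. SLC7A1, the cationic amino acid transporter, was at 45.0, 47.0 and 46.0 FPKM in sh-NC and at 5.92, 6.50 and 6.55 FPKM in sh-CLGN. CHAC1, which degrades glutathione, was at 46.3 to 57.5 FPKM and 10.1 to 10.6 FPKM. All 5 were lower in each sh-CLGN library, which with 2 groups is what nearness to EGR1 requires.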

How the data were processed

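RNA was sequenced in 3 libraries each of sh-NC and sh-CLGN Hep-G2 cells, prepared with a NEBNext Ultra kit. The values deposited by the authors were FPKM, in 1 table. The submitters' processing notes name HISAT2 2.0.5, featureCounts and GRCh38; parameters and strandedness are not given in the sources used here, so reads of overlapping genes may be split. Gene positions equalled GENCODE 29 for 58735 of 58735 genes. Deposited FPKM times gene length fell on whole reads for 100% of values, within 0.01 of a read. Reads carried no molecular identifiers, so the floor of 3 reads covers counting error only.

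The 13074 genes that reached 1 FPKM in 3 or more libraries were compared on log2(FPKM + 1) with limma 3.58.1 in R 4.3.3 (eBayes with trend, all 6 libraries, no covariate). P-values were two-sided with Benjamini-Hochberg adjustment over all genes tested. Calls needed an adjusted p no larger than 0.05 together with a log2 difference of 1 or more in size. The fit was tested on simulated data. The members and lists were chosen with earlier results of these data known. Named genes were the members, CLGN, up to 5 called genes per list by smallest adjusted p, 9 relatives of the members (NAB1, NAB2, SRF, ELK1, ELK3, ELK4, ATF2, JDP2 and CREB1) and the 5 genes nearest to EGR1; some genes that meet this rule are not reported here. Every other name, the markers, overlapping genes and exceptions to a count included, was chosen after its values were seen. MKL1 and MKL2 were matched by their current symbols. Transcripts of GENCODE 29 gave GC content for 99.95% of these genes, and its trend was taken out per library by lowess (span 0.3). Promoters came from RefSeq, and motifs and figures used Python 3.11.15, numpy 2.4.6, pandas 2.3.3 and matplotlib 3.10.9. The alternatives were a pseudocount of 0.1, no filter, TPM, read totals, quantile and median-ratio scaling, GC correction, voom on recovered reads, protein-coding genes only, a replicate block, and each library left out.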

Additional observations from a re-analysis of the deposited data

How the results depend on the processing

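The calls numbered 821, 404 higher and 417 lower, with 8598 genes past the adjusted p. A pseudocount of 0.1 gave 1606 calls (925 higher, 681 lower) and a median log2 difference of the 10 members of -0.90 against -0.70. TPM gave 1426 calls, 1002 higher and 424 lower, and voom on the recovered reads 1723, 1165 higher and 558 lower. With read totals as the scale, calls were 605 higher and 235 lower, with a median of the members of -0.58, and removal of the GC trend 477 higher and 244 lower. Protein-coding genes only gave 249 higher and 392 lower. The cause of these moves was not tested. The median of all genes moved by 0.11 with TPM, 0.16 with read totals and 0.11 with no filter. Leaving out each library in turn gave 784 to 902 calls (386 to 436 higher, 398 to 466 lower), 7634 to 8760 genes past the adjusted p and a median of the members from -0.76 to -0.65. Of the other immediate early genes, 23 or 24 were lower and 2 or 3 higher by adjusted p under every setting. No called member changed direction under any setting. FOSB and EGR3, which were under the filter, did change sign. FOSB was at 0.04 with all libraries and at -0.02 without sh-NC 1, and EGR3 at -0.001 and, without sh-CLGN 1, at 0.005. Over the settings other than leaving out a library, the log2 difference ran from -3.003 to -2.40 for EGR1, from -1.46 to -1.11 for JUNB, from -1.01 to -0.71 for JUN, from -0.79 to -0.43 for JUND and from -1.16 to -0.43 for FOS. Quantile and median-ratio scaling, GC correction and voom gave no value for the 4 members under the filter, and so no median of the 10.

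With the replicate number as a block, 821 genes were called and 8038 passed the adjusted p. The deviations of same-numbered libraries correlated at -0.02, -0.05 and -0.15, so no shared deviation of those libraries was seen. These values cannot show whether same-numbered libraries were prepared together. Depth limits EGR2, EGR3, FOSB, FOSL1 and FOS, whose libraries held at most 105 reads each.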
